A study of Mus musculus with 12 samples.

Results

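The genes described here are 10 nuclear genes for chaperones and proteases of mitochondria: Hspd1, Hspe1, Hspa9, Dnaja3, Trap1, Lonp1, Clpp, Clpx, Yme1l1 and Afg3l2. They were found by matching their symbols to the Ensembl gene identifiers of the count tables, and they are 10 of 48709 identifiers. All 10 were among the 14408 genes left after genes with low counts were removed. RNA was sequenced from cultured embryonic fibroblasts of C57BL/6 mice in 4 groups of 3 samples. Each genotype, WT or TAZKo, was kept in normoxia or held for 24 hours in hypoxia. TAZKo cells lack tafazzin by the series' design text, which calls the WT cells isogenic; tafazzin, encoded by Taz, remodels the mitochondrial lipid cardiolipin. The labels give neither the oxygen level, nor how Taz was changed, nor whether a genotype is 1 clone or several, nor whether the 3 samples of a group came from separate cultures. P-values therefore measure only the spread between these samples, which may be technical.

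Most mitochondrial proteins are made in the cytosol, imported unfolded and folded in the matrix. The Hsp70 protein mortalin, encoded by Hspa9, and its J-domain partner Dnaja3 receive incoming chains, the chaperonin Hsp60 with its lid Hsp10 (Hspd1 and Hspe1) encloses and folds them, and Trap1 is the matrix Hsp90. Proteins that stay misfolded or are no longer needed are degraded by ATP-driven proteases: Lon (Lonp1) and ClpXP (the unfoldase Clpx with the peptidase Clpp) in the matrix, and, in the inner membrane, the i-AAA protease Yme1l1 and the m-AAA protease subunit Afg3l2. These genes are widely used as readouts of mitochondrial protein-folding stress.

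Sequence before the transcription start is shown for the genes whose changes are followed most closely below: Lonp1, which moved furthest, Clpx, and the chaperonin pair. The sequences are from RefSeq on GRCm38.p6, whose table held windows for 8 of the 10 genes. Capitals mark CACGTG in the 250 bases before the Lonp1 start (chr17:56626904-56627153, minus strand), ACGTG on the opposite strand in the 250 bases before the Clpx start (chr9:65294010-65294259, plus strand), and GAANNTTC, the core of a heat shock element, in 30 bases upstream of Hspe1 (chr1:55088053-55088082, plus strand).
Lonp1: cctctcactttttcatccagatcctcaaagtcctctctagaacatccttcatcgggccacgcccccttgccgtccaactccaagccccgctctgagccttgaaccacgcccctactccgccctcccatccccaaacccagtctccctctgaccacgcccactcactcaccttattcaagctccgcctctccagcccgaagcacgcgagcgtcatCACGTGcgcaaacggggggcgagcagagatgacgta
Clpx: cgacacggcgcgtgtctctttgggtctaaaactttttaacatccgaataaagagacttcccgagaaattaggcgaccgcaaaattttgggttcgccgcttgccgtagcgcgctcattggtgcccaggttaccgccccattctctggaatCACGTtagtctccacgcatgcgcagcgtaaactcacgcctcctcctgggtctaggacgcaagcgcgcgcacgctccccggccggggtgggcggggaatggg
Hspe1: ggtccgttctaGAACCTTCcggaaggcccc

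The windows searched ran from 250 bases before to 50 bases after the start, on both strands, and the 8 genes had 9 of them. ACGTG, a core that HIF binds, was found in windows of Hspd1, Dnaja3, Lonp1 and Clpx (4 of 9), against 19.6% of the 32851 promoters in the table. CACGTG, which contains ACGTG on both strands, was found in 2 of 9 (Hspd1 and Lonp1), against 7.15% of all promoters. GAANNTTC was found in 2 of 9 (Hspd1 and Hspe1, whose windows overlap and share the same site), against 7.86%. The spellings TTGCATCA and TGATGNAA of the composite C/EBP-ATF element were found in none of the 9 windows, against 0.895% and 3.97% of all promoters. A match is a run of letters, and no binding was measured in these samples.

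Total counts ran from 21039451 to 31204510 per library, so that 3 counts were worth 0.0961 to 0.143 CPM (counts scaled to a common library size), a floor that covers counting error only. Most fibroblast markers were present throughout: 6 of 8 averaged over 10 CPM, and the summed level ran from 10000 to 13000 CPM. Col1a2 averaged 2.12 to 5.33 CPM by group, and Thy1 was too low to be tested. Of the 7 tested, 4 were higher and 2 lower in TAZKo than in WT normoxia. In hypoxia 3 were higher and 2 lower. The shares of all tested genes were 15.6% and 14.9% in normoxia, and 15.8% and 16.9% in hypoxia. Col1a1 averaged 2830 and 3610 CPM in WT normoxia and hypoxia, and 1150 and 1380 CPM in TAZKo. Of 6 leukocyte markers Adgre1 and Tyrobp were at 0 in every library and the list summed to at most 13.9 CPM. Of 5 muscle markers Myod1 was at 0 in every library, and the list summed to 2.85 to 5.04 CPM in WT and 5.6 to 10.1 CPM in TAZKo libraries. Summed endothelial markers (5 genes) were 14.5 to 21 CPM in WT and 3.84 to 7.48 CPM in TAZKo libraries, and summed epithelial markers (5 genes, mainly Krt14 and Krt18) were 315 to 430 and 196 to 258 CPM. Krt14 averaged 244 and 200 CPM in WT normoxia and hypoxia, and 104 and 133 CPM in TAZKo. The muscle, endothelial and epithelial sums did not overlap between the genotypes. The muscle sum was mainly Des, the 1 gene of that list that was tested, and the endothelial sum mainly Tek. Of 3 tested endothelial markers, 1 was higher and 2 lower in TAZKo than in WT normoxia. The higher one was Pecam1, with means of 0.577 CPM in TAZKo and 0.227 CPM in WT normoxia. The part of the marker differences in the genotype results below was not tested. In such bulk samples fewer cells of a type and less RNA per cell cannot be told apart. Taz transcript was not reduced: it was higher in libraries labelled TAZKo, by a log2 fold change of 0.29 (SE 0.079, adjusted p = 0.0139) in normoxia and 0.43 (SE 0.080, adjusted p = 0.00112) in hypoxia, so the genotypes below are those of the labels. WT normoxia sample 1 stood apart from all other libraries. Its deviations from its group mean followed the GC content of the transcripts (Spearman 0.83 over 9433 genes, a description). Sample 1 of WT hypoxia (0.56) and of TAZKo normoxia (0.52) deviated the same way to a lesser degree, and WT normoxia samples 2 and 3 the opposite way (-0.77 and -0.75). Results that rest on WT normoxia sample 1 are given with and without it.

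Hypoxia moved most of these genes in WT cells, and in both directions. Lonp1 rose 3.57-fold, Clpx, Hspa9 and Dnaja3 rose by smaller amounts, and Hspe1, Hspd1, Trap1, Clpp and Afg3l2 fell. Thus 9 of 10 passed the test (4 higher, 5 lower), where 51% of all tested genes did (26% higher, 25% lower). The 3 hypoxic and 3 normoxic WT values did not overlap for 9 of the 10 genes, and for 54.6% of all tested genes. Their median log2 change was -0.14, against 0.01 for all tested genes. In libraries labelled TAZKo 6 of 10 passed, with Lonp1 and Hspa9 higher and Hspd1, Hspe1, Trap1 and Afg3l2 lower, where 43.8% of all genes did (22.2% higher, 21.6% lower). The values did not overlap for 8 of the 10, and for 61.1% of all tested genes. The median was -0.19, against -0.01 for all tested genes. Every log2 fold change and adjusted p for a gene is from edgeR's quasi-likelihood test over all 12 samples, adjusted by Benjamini-Hochberg over all tested genes with a threshold of 0.05.

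**Figure D1:**
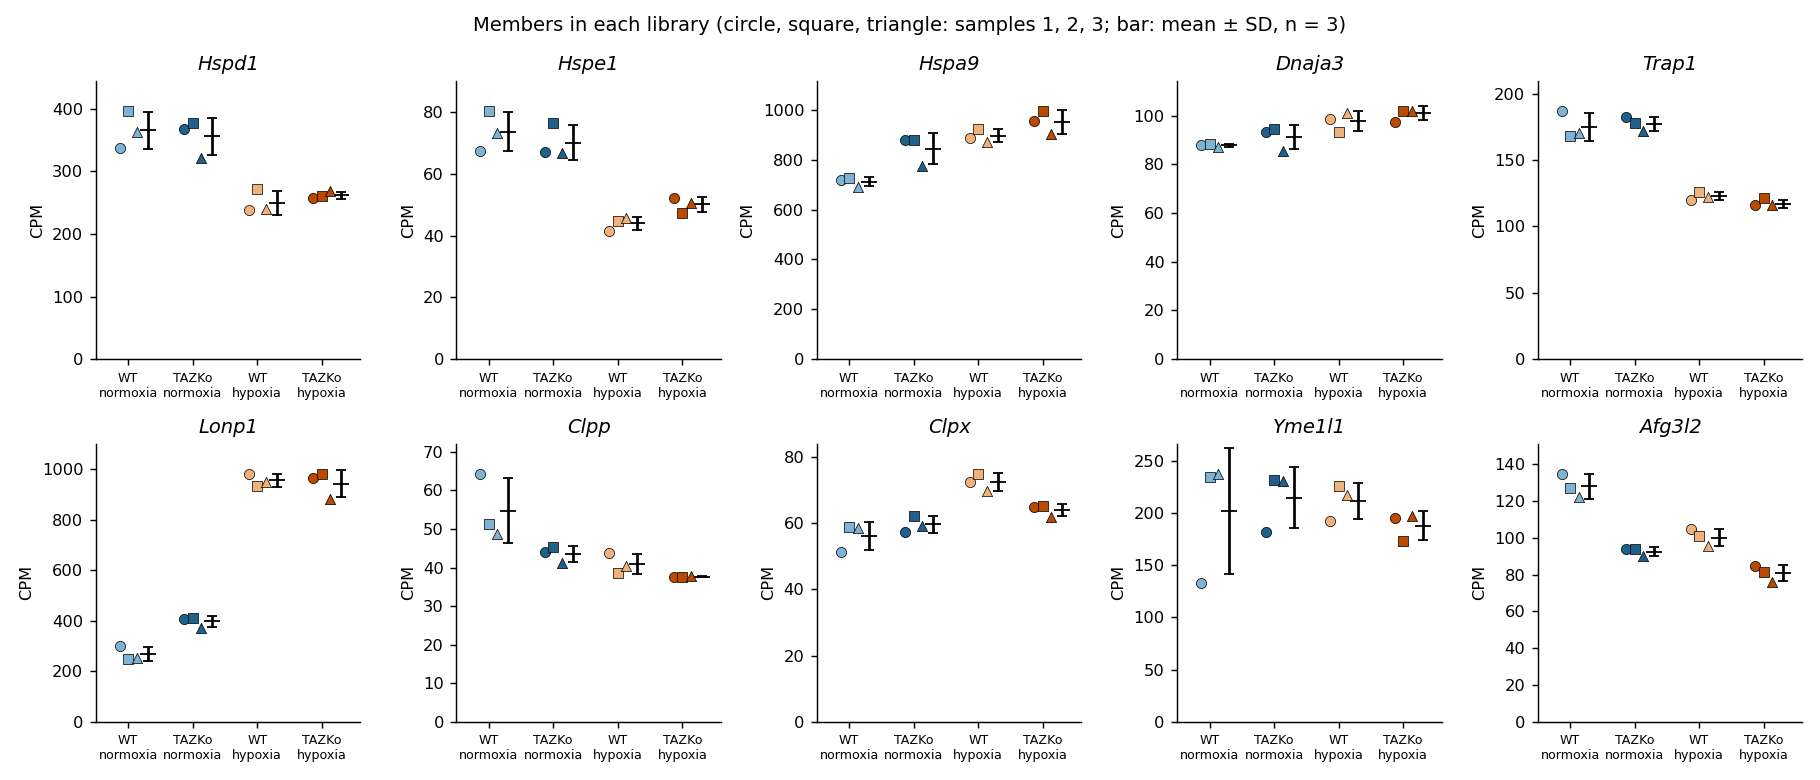
CPM (vertical axis, from 0) of each of the 10 genes in each of the 12 libraries, by group (horizontal axis), with samples 1, 2 and 3 as circle, square and triangle and the mean ± SD (n = 3) beside them. Lonp1 lies at 249 to 411 CPM in normoxia and 882 to 982 CPM in hypoxia, and the low Yme1l1 point is WT normoxia sample 1.

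The chaperonin genes fell together in hypoxia. Hspd1, which encodes the barrel subunit Hsp60 (ENSMUSG00000025980, chromosome 1, 55077835 to 55088243, minus strand of GRCm38), was at 338, 397 and 363 CPM in WT normoxia and 239, 272 and 240 CPM in WT hypoxia. In TAZKo libraries it was at 368, 378 and 321 CPM in normoxia and 258, 260 and 269 CPM in hypoxia. No hypoxic library reached the lowest normoxic one in either genotype. The log2 change was -0.55 (SE 0.079, adjusted p = 6.21e-05) in WT and -0.44 (SE 0.079, adjusted p = 0.000505) in TAZKo.

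Hspe1, which encodes the lid Hsp10 (ENSMUSG00000073676, chromosome 1, 55088132 to 55091307, plus strand), was at 67.5, 80.4 and 73.1 CPM in WT normoxia and 41.6, 44.7 and 45.6 CPM in WT hypoxia. Its levels in TAZKo were 67, 76.5 and 66.6 CPM in normoxia and 52.2, 47.4 and 50.7 CPM in hypoxia. The conditions did not overlap in either genotype, and in hypoxia the TAZKo libraries all lay above the WT ones. The fall was -0.74 (SE 0.080, adjusted p = 4.28e-06) in WT and -0.48 (SE 0.079, adjusted p = 0.000248) in TAZKo, and the difference between these responses was 0.26 (adjusted p = 0.275). Between genotypes in hypoxia the log2 difference was 0.19 (SE 0.080, adjusted p = 0.0922), and without WT normoxia sample 1, which changes the shared estimate of spread, it was 0.18 with an adjusted p of 0.0413.

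The chaperonin genes stand head to head: their annotated first exons share 112 bases on opposite strands. The heat shock core printed for Hspe1 lies before the Hspe1 start and before 1 of the RefSeq starts of Hspd1, and an annotated Hspd1 exon from another start covers it. Over the 12 samples their log2 CPM correlated at 0.96 (Pearson), and at 0.65 after group means were removed; both are descriptions of genes measured in the same libraries. The number of Hspe1 counts per Hspd1 count ran from 0.164 to 0.207 in single libraries. Across WT hypoxia this ratio differed by -0.20 on the log2 scale (two-sided exact permutation p = 0.1, the smallest that 3 against 3 samples allow; adjusted p = 0.3 over 12 ratio comparisons). Of the 50-base words of the longest Hspd1 transcript, 44.8% occur in other annotated genes, mostly the processed pseudogene Hspd1-ps3, which received 6 to 16 counts per library. How reads that match both were counted is not given in the sources used here, so the Hspd1 level is uncertain to that extent.

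The Hsp70 system did not follow the chaperonin. Hspa9, encoding mortalin (ENSMUSG00000024359, chromosome 18, 34937414 to 34954357, minus strand), was at 720, 727 and 692 CPM in WT normoxia and 889, 924 and 873 CPM in WT hypoxia. The TAZKo libraries were at 881, 879 and 774 CPM in normoxia and 958, 997 and 902 CPM in hypoxia. WT normoxia was thus the lowest group, with all 3 samples below every other library. Hypoxia raised Hspa9 by 0.33 in WT (SE 0.062, adjusted p = 0.000576), and by 0.17 in TAZKo (SE 0.062, adjusted p = 0.0369). The latter call was lost in 15 of 33 alternatives, 11 of them among the 12 that leave out 1 library (0.08 to 0.18).

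Dnaja3, the J-domain partner that stimulates mortalin's ATPase (ENSMUSG00000004069, chromosome 16, 4639989 to 4707695, plus strand), ran from 87.1 to 88.4 CPM in WT normoxia and from 93.4 to 101 CPM in WT hypoxia. Those groups did not overlap, and the log2 change was 0.16 (SE 0.058, adjusted p = 0.0367). This small rise was lost in 25 of 33 alternatives (0.05 to 0.17). In TAZKo libraries Dnaja3 ran from 85.4 to 94.7 CPM in normoxia and from 97.3 to 102 CPM in hypoxia, a log2 change of 0.14 (adjusted p = 0.0621). Its annotated exons share 160 bases with Vasn on the same strand and 153 bases with Coro7 on the other.

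Trap1, the matrix Hsp90 (ENSMUSG00000005981, chromosome 16, 4039971 to 4077827, minus strand), fell like the chaperonin. It was at 187, 168 and 170 CPM in WT normoxia and 120, 126 and 122 CPM in WT hypoxia. In TAZKo it was at 182, 178 and 172 CPM in normoxia and 116, 121 and 116 CPM in hypoxia. The conditions lay far apart with little spread inside them, and the genotypes overlapped in each condition. The log2 change was -0.51 in WT (SE 0.057, adjusted p = 6.70e-06) and -0.59 in TAZKo (SE 0.057, adjusted p = 2.40e-06).

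Lonp1 showed the furthest change of the 10 genes. It encodes Lon, the soluble matrix protease that degrades oxidised and misfolded proteins and some respiratory subunits (ENSMUSG00000041168, chromosome 17, 56614297 to 56626887, minus strand). Its level was 300, 249 and 252 CPM in WT normoxia and 982, 932 and 950 CPM in WT hypoxia. The TAZKo libraries were at 408, 411 and 372 CPM in normoxia and 965, 979 and 882 CPM in hypoxia. In normoxia every TAZKo library was above every WT library, and in hypoxia the genotypes overlapped. The log2 rise in hypoxia was 1.84 in WT (SE 0.077, adjusted p = 4.95e-10; 3.57-fold) and 1.25 in TAZKo (SE 0.076, adjusted p = 3.10e-08; 2.37-fold).

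The Lonp1 response differed between genotypes. The TAZKo response minus the WT response was -0.59 on the log2 scale (SE 0.11, 95% interval -0.84 to -0.35, adjusted p = 0.00998). Lonp1 was the 1 gene of the 10 to pass this test, which 2.43% of all tested genes passed (0.722% higher, 1.71% lower). Its genotype difference was 0.57 in normoxia (SE 0.075, adjusted p = 6.85e-05; 1.49-fold) and -0.02 in hypoxia (SE 0.075, 95% interval -0.19 to 0.15, adjusted p = 0.871). These comparisons share the same libraries and are not independent. Without WT normoxia sample 1, the highest of its group, the difference of responses was -0.68 (adjusted p = 0.000215). With the sequencing lane as a covariate it was -0.59 (adjusted p = 0.00637).

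The partners of ClpXP moved in opposite directions in WT hypoxia. Clpx, the unfoldase ring (ENSMUSG00000015357, chromosome 9, 65294260 to 65330658, plus strand), was at 51.4, 58.8 and 58.6 CPM in WT normoxia and 72.5, 75 and 69.7 CPM in WT hypoxia. It rose by 0.36 (SE 0.066, adjusted p = 0.000416), or by 0.30 without WT normoxia sample 1 (adjusted p = 0.000432). In TAZKo libraries it was at 57.4, 62.2 and 59.1 CPM in normoxia and 64.8, 65.1 and 62 CPM in hypoxia, a log2 change of 0.10 (adjusted p = 0.226). In hypoxia every WT library lay above every TAZKo library, with a log2 difference of -0.18 (SE 0.065, adjusted p = 0.0517). That value sits at the threshold and passed it in several alternatives, among them without WT normoxia sample 1 (-0.18, adjusted p = 0.0102). The difference between the hypoxia responses was -0.26 (adjusted p = 0.18).

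Clpp, the peptidase chamber (ENSMUSG00000002660, chromosome 17, 56990305 to 56996188, plus strand), was at 64.4, 51.3 and 48.6 CPM in WT normoxia and 43.7, 38.5 and 40.4 CPM in WT hypoxia. The TAZKo libraries were at 44, 45.3 and 41.3 CPM in normoxia and 37.6, 37.5 and 37.7 CPM in hypoxia. WT normoxia was the highest group, without overlap, and its top value came from sample 1. The fall in hypoxia was -0.42 in WT (SE 0.093, adjusted p = 0.00182), or -0.29 without that sample (adjusted p = 0.00153). In TAZKo it was -0.21 (adjusted p = 0.085), and -0.21 with an adjusted p of 0.00717 when WT normoxia sample 1 was left out of the shared fit.

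The number of Clpx counts per Clpp count was 0.797, 1.15 and 1.21 in WT normoxia and 1.66, 1.95 and 1.72 in WT hypoxia. In TAZKo it was 1.31, 1.37 and 1.43 in normoxia and 1.72, 1.74 and 1.64 in hypoxia. The ratio was higher in hypoxia in every library of either genotype, by 0.78 and 0.31 on the log2 scale. Both comparisons had a two-sided exact permutation p of 0.1, the smallest 3 against 3 allows, and an adjusted p of 0.3 over 12 ratio comparisons. Without WT normoxia sample 1, which had the lowest ratio, the WT difference was 0.59. Counts were not scaled by gene length here, so the ratio compares libraries and is no stoichiometry.

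Of the inner membrane proteases, Yme1l1 did not pass in any of the 4 comparisons of groups and Afg3l2 passed in all 4. Yme1l1, whose protease faces the intermembrane space and cleaves OPA1 (ENSMUSG00000026775, chromosome 2, 23156369 to 23199260, plus strand), was at 133, 235 and 238 CPM in WT normoxia and 192, 226 and 217 CPM in WT hypoxia. In TAZKo it was at 182, 232 and 231 CPM in normoxia and 195, 173 and 197 CPM in hypoxia. Sample 1 was the lowest library in 3 of the 4 groups, and all groups overlapped. Its log2 changes in hypoxia were 0.07 in WT (SE 0.17, adjusted p = 0.778) and -0.19 in TAZKo (adjusted p = 0.404). Without WT normoxia sample 1 the WT value turned to -0.16 (adjusted p = 0.173). Its SD within groups was 0.273 on the log2 scale, against a median of 0.0996 over genes, and its transcript has the lowest GC content of the 10 (38%). With an offset for GC content Yme1l1 passed as lower in TAZKo hypoxia (-0.19, adjusted p = 0.00344) and as lower in TAZKo than in WT hypoxia (-0.12, adjusted p = 0.0494). With the offset and the replicate block it also passed in WT hypoxia, at -0.11 (adjusted p = 0.0462). With no filter on low counts it passed in TAZKo hypoxia, at -0.22 (adjusted p = 0.0249).

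Afg3l2 encodes a subunit of the m-AAA protease, which faces the matrix and matures other mitochondrial proteins (ENSMUSG00000024527, chromosome 18, 67404764 to 67449172, minus strand). It was at 135, 127 and 122 CPM in WT normoxia and 105, 101 and 95.5 CPM in WT hypoxia. The TAZKo libraries were at 93.9, 93.9 and 89.9 CPM in normoxia and 84.9, 81.2 and 76.1 CPM in hypoxia. The TAZKo libraries lay below the WT ones in each condition, and the hypoxic below the normoxic in each genotype. The fall in hypoxia was -0.35 in WT (SE 0.063, adjusted p = 0.000379) and -0.20 in TAZKo (SE 0.063, adjusted p = 0.0215).

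**Figure D2:**
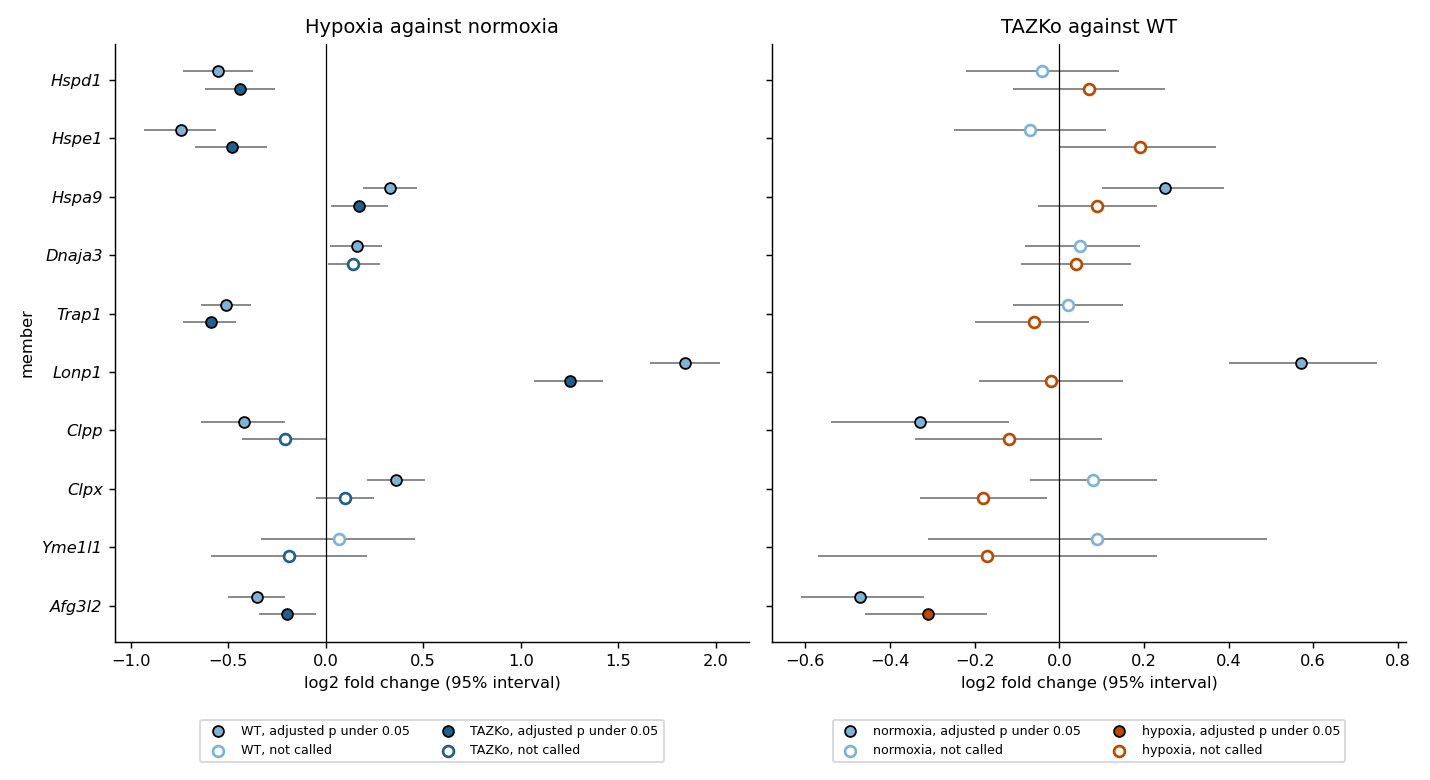
Log2 fold change (horizontal axis) with its 95% interval for the 10 genes (vertical axis), for hypoxia against normoxia in each genotype (left) and for TAZKo against WT in each condition (right). Filled points have an adjusted p under 0.05. Lonp1 is at 1.84 and 1.25 on the left, and at 0.57 in normoxia but -0.02 in hypoxia on the right.

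Between genotypes fewer of these genes differed. In normoxia Lonp1 and Hspa9 were higher and Afg3l2 and Clpp lower in libraries labelled TAZKo. These are 4 of 10, where 30.4% of all tested genes passed (15.6% higher, 14.9% lower), and 4 of 10 had values that did not overlap, where 42.8% of all genes did. Their log2 differences, apart from Lonp1, were 0.25 for Hspa9 (SE 0.062, adjusted p = 0.00864), -0.47 for Afg3l2 (SE 0.063, adjusted p = 7.86e-05) and -0.33 for Clpp (SE 0.092, adjusted p = 0.0148). Without WT normoxia sample 1 the Clpp difference was -0.20 (adjusted p = 0.026). The other 6 genes lay between -0.07 and 0.09. In hypoxia 1 of 10 passed, where 32.8% of all genes did (15.8% higher, 16.9% lower): Afg3l2, at -0.31 (SE 0.063, adjusted p = 0.00177). Values did not overlap for 4 of 10, and for 50% of all genes. Without WT normoxia sample 1 the count was 3, with Clpx and Hspe1 added, and the share of all genes called rose to 41.9%.

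Hspa9 and Afg3l2 lie on chromosome 18, where many genes were lower in libraries labelled TAZKo. The median genotype difference of the 360 tested genes on it was -0.22 in normoxia and -0.28 in hypoxia, and 37.5% and 48.1% of them were called lower. On the chromosomes of the other 8 genes these medians ran from -0.09 to 0.03. Around Afg3l2, the 10 nearest tested genes had medians of -0.28 and -0.33, with 6 called lower in each condition. Those around Hspa9 had medians of -0.26 and -0.29, with 4 called lower in each. In normoxia 1 of them was called higher, as was Hspa9 itself. Around Clpp, also lower in normoxia, the 10 nearest tested genes had a median of -0.15 there, with 3 called lower and 0 higher. Those around Lonp1, which was higher in normoxia, had a median of -0.05, with 1 called lower and 1 higher. The part of the chromosome or of nearby genes in the Afg3l2 and Clpp differences was not tested.

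Per kilobase of annotated exon, Hspa9 had the highest level of the 10 in 3 of the 4 groups. It was at 165 CPM per kb in WT normoxia, followed by Hspd1 (138), Trap1 (68), Lonp1 (61.1), Hspe1 (50), Clpp (44.8), Yme1l1 (25.2), Dnaja3 (22.4), Clpx (16.1) and Afg3l2 (13). Trap1 and Lonp1, Hspe1 and Clpp, and Yme1l1 and Dnaja3 lay within their spread of each other. In WT hypoxia Lonp1 came first at 218 CPM per kb, with Hspa9 at 208 CPM per kb, within their spread. In TAZKo hypoxia the order of these was the reverse (215 and 221 CPM per kb), within their spread. Exon length is that of all annotated isoforms together, so these levels are approximate.

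**Figure D3:**
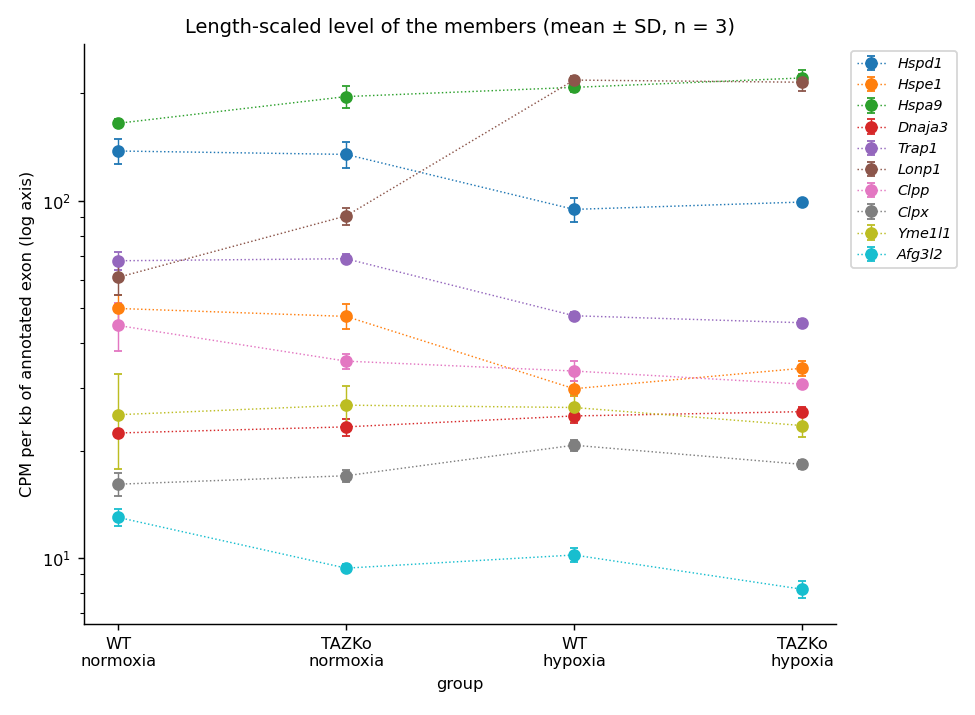
Mean CPM per kb of annotated exon (log axis; error bars are the SD, n = 3) of the 10 genes in the 4 groups; dotted lines only join points of a gene. Lonp1 goes from the fourth level in WT normoxia (61.1) to the first in WT hypoxia (218), and Afg3l2 is the lowest in each group.

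Other genes of the same machinery were counted from lists. Of 15 further mitochondrial proteases and peptidases, 9 fell in WT hypoxia (median -0.29) and 11 fell in TAZKo hypoxia (median -0.27). The rest did not pass, and 25% and 21.6% of all genes were called lower. Without WT normoxia sample 1, 1 rose and 10 fell in WT. An offset for GC content gave 1 higher and 12 lower there, and scaling by library size alone gave 12 lower. The genes that fell included Mipep, the mitochondrial intermediate peptidase (-0.82 in WT and -0.91 in TAZKo), and Htra2, an intermembrane space protease (-1.06 and -0.79). Of the 50-base words of Htra2, 44% occur in other genes. Oma1, the stress-activated protease that also cleaves OPA1, fell as well (-0.79 and -0.68). Oma1 went from 15.3 ± 0.136 to 8.80 ± 0.612 CPM in WT (SD, n = 3; adjusted p = 1.58e-06) and from 15.8 ± 0.194 to 9.83 ± 0.439 CPM in TAZKo (adjusted p = 7.91e-06). The rise of Lonp1 was thus against the direction of these. Between genotypes, 1 of the 15 was higher and 3 lower in normoxia, and 2 higher and 4 lower in hypoxia, near the 30.4% and 32.8% of all genes called. Metap1d, a methionine aminopeptidase, was higher in TAZKo (0.25 and 0.27). Spg7 and Afg3l1, which are m-AAA subunits like Afg3l2, were lower in TAZKo by -0.35 and -0.45 in normoxia (adjusted p = 0.0013 and 0.000259). In hypoxia they were lower by -0.48 and -0.51 (adjusted p = 0.000105 and 8.12e-05). Whether genes near Spg7 and Afg3l1 on their chromosome shifted with them was not tested.

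Among 10 mitochondrial co-chaperones, 2 rose and 4 fell in WT hypoxia and 1 rose and 5 fell in TAZKo hypoxia, against 51% and 43.8% of all tested genes called. Bcs1l, an AAA protein that assembles complex III, was at -0.71 in WT and -0.37 in TAZKo. Of 6 partners of the inner membrane proteases, such as prohibitins, 3 fell in each genotype and the others did not pass, where 25% and 21.6% of all genes were called lower. Without WT normoxia sample 1 the WT count was 5, and scaling by library size alone also gave 5. Of 12 import subunits, 1 rose and 5 fell in WT, and 2 rose and 5 fell in TAZKo, and 6 of 12 is near the 51% of all genes called in WT. Tomm20, a receptor of the outer membrane, rose in both (0.33 and 0.59), and Timm17b, a channel subunit of the inner membrane, fell in both (-0.57 and -0.48). Scaling by library size alone shifted the median of all genes in these comparisons to about -0.10, and with it the co-chaperones had 7 lower and the import subunits 8 lower in WT.

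Of 9 transcription factors linked to mitochondrial stress, 5 rose and 2 fell in WT hypoxia, where 26% of all genes were called higher and 25% lower. In TAZKo hypoxia 4 rose and 2 fell, where 22.2% were called higher and 21.6% lower. Atf4, which drives the integrated stress response, went from 376 ± 45.5 to 806 ± 57.8 CPM with hypoxia in WT and from 601 ± 37.7 to 783 ± 5.78 CPM in TAZKo (SD, n = 3). Ddit3, encoding CHOP, went from 18.4 ± 2.61 to 88.1 ± 3.93 CPM and from 44.6 ± 1.81 to 119 ± 10.6 CPM. Both were higher in TAZKo than in WT normoxia, Atf4 by 0.67 (adjusted p = 3.82e-05) and Ddit3 by 1.28 (adjusted p = 4.05e-07). Both also had a smaller hypoxia response in TAZKo, by -0.72 (adjusted p = 0.00554) and -0.85 (adjusted p = 0.00446). Atf5, a regulator of mitochondrial chaperone genes, was higher in TAZKo by 1.09 in normoxia (adjusted p = 1.61e-06) and by 0.81 in hypoxia (adjusted p = 2.41e-05). Unlike Atf4 and Ddit3, its mean did not rise with hypoxia. It went from 114 ± 18.4 to 104 ± 3.56 CPM in WT and from 242 ± 9.76 to 183 ± 11.9 CPM in TAZKo.

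Chaperones of other compartments served as comparison. Of 13 tested cytosolic chaperones, 4 rose and 6 fell in WT hypoxia and 3 rose and 3 fell in TAZKo hypoxia, against 51% and 43.8% of all genes called. Scaling by library size alone gave 2 higher and 7 lower in WT and 2 higher and 5 lower in TAZKo. Hsph1, an Hsp110, fell in both (-1.15 and -0.94), and Dnajb1, an Hsp40, rose in both (0.35 and 0.29). Of 10 endoplasmic reticulum chaperones, 2 rose and 4 fell in WT, and 1 rose and 4 fell in TAZKo, near the same shares of all genes. Between genotypes 5 of these 10 were lower in each condition and the others did not pass, including Calr at -0.56 and Pdia4 at -0.53 in normoxia. Of the 13 cytosolic chaperones, 1 was higher and 5 lower in TAZKo than in WT normoxia, and 1 higher and 3 lower in hypoxia. Of all tested genes 14.9% and 16.9% were called lower in these comparisons, and 15.6% and 15.8% higher. Without WT normoxia sample 1, endoplasmic reticulum chaperones had 1 higher and 6 lower in WT hypoxia, 2 higher and 6 lower in TAZKo hypoxia, and 1 higher and 7 lower between genotypes in hypoxia. Co-chaperones then had 2 higher in TAZKo hypoxia.

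**Figure D4:**
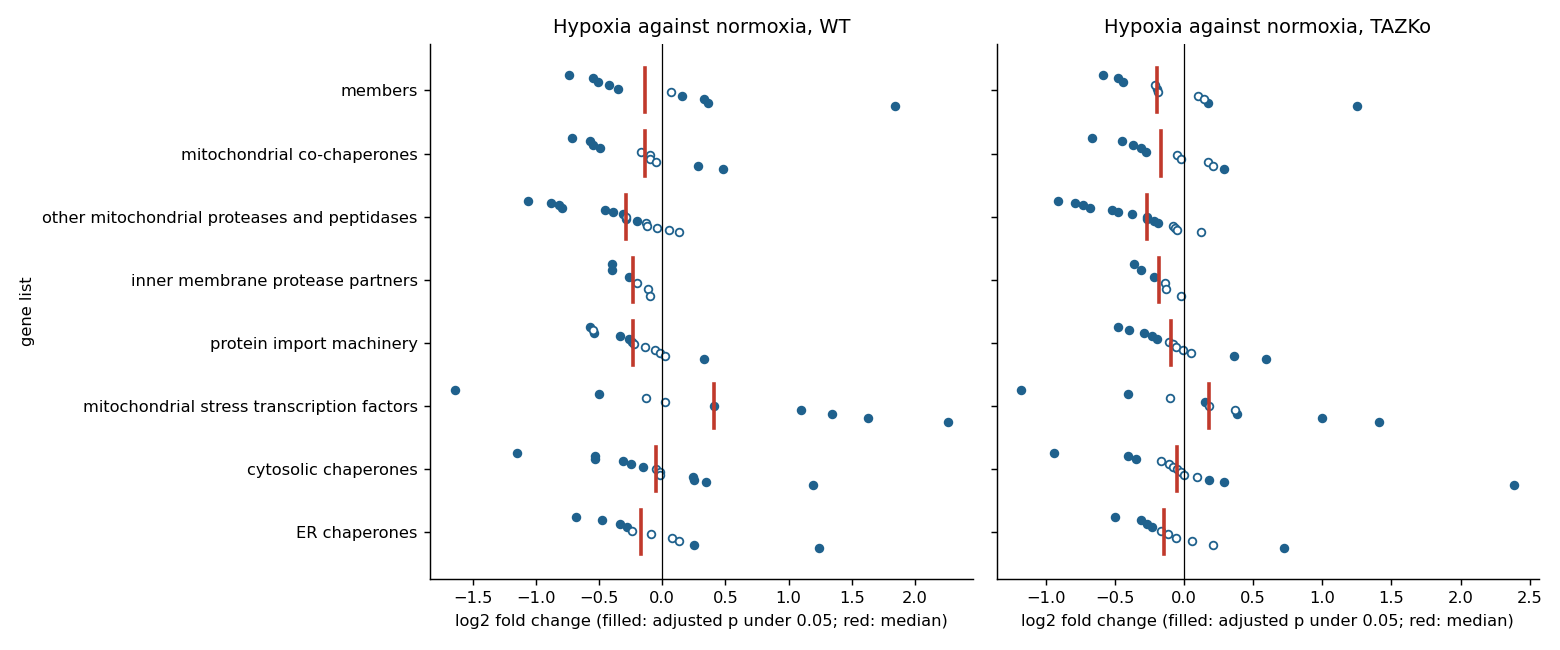
Log2 fold change in hypoxia (horizontal axis) of the 10 genes (top row, members) and of each listed gene of 7 further groups (rows), in WT (left) and TAZKo (right). Filled points have an adjusted p under 0.05 and red bars are medians; the far right point of the cytosolic row in TAZKo is Hspa1b at 2.39, which rests on 0 to 5 counts per library. The protease row has its median at -0.29 and -0.27, while the Lonp1 point of the top row is at 1.84 and 1.25.

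The genes most like each of the 10 were sought by the Pearson correlation of log2 CPM over the 12 samples, among genes averaging at least 10 CPM. For Lonp1 they were Anxa2 (0.996), Mthfd1l (0.995) and Lgals3 (0.995). For Trap1 they were Csad (0.991), Exoc3 (0.986) and Mrps22 (0.986). For Hspd1 and Hspe1 the lists shared Dhx29 (0.971 with each). For Afg3l2 the first was Psma7 (0.99), for Clpp Tmcc2 (0.986), for Clpx Slc26a2 (0.969), for Hspa9 Slc25a33 (0.964) and for Dnaja3 D6Wsu163e (0.908). Yme1l1 was closest to Zbtb33 (0.986) and Zfp148 (0.981). Among the 10 genes, Lonp1 ran opposite to Hspe1 (-0.94), Hspd1 (-0.93) and Trap1 (-0.93). All these values share libraries and mostly reflect the 4 groups, and they carry no p.

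**Figure D5:**
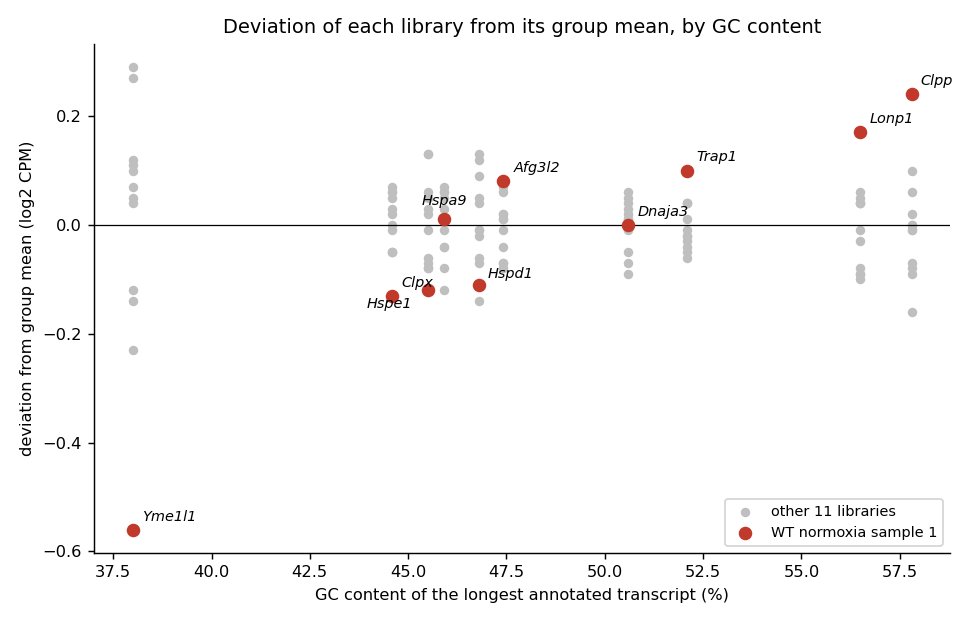
Deviation of each library's log2 CPM from its group mean (vertical axis) against the GC content of the longest annotated transcript in % (horizontal axis) for the 10 genes. Red points are WT normoxia sample 1, which runs from -0.56 for Yme1l1 (38% GC) to 0.24 for Clpp (57.8% GC), and grey points are the other 11 libraries.

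In WT normoxia sample 1 the deviations of the 10 genes from the group mean followed GC content at its low and high ends. At the low end Yme1l1 was at -0.56, Clpx at -0.13 and Hspe1 at -0.12. At the high end Trap1 was at 0.10, Lonp1 at 0.17 and Clpp at 0.24. Those between, by rising GC content, were not in order: Hspa9 at 0.01, Hspd1 at -0.11, Afg3l2 at 0.08 and Dnaja3 at 0.00. The share of counts from mitochondrial genes was also lowest in that library (0.921%, against up to 1.93%).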

How the data were processed

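The authors deposited 1 table of whole-number read counts per Ensembl gene for each of the 12 samples, from TruSeq RNA v2 libraries per the labels' protocols. The build is mm10 per the submitters' processing notes. The aligner, the counter and its use of strand are not given in the sources used here. Of 48709 identifiers, 48349 were matched to symbols and coordinates of GENCODE M21 (GRCm38), and 360 were not.

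Low-count genes were dropped by filterByExpr (14408 left), counts were scaled by TMM, and the edgeR 4.0.16 quasi-likelihood model (limma 3.58.1, R 4.3.3) was fitted to all 12 samples with 1 coefficient per group. Contrasts were adjusted by Benjamini-Hochberg over all tested genes. The SE is the log2 fold change divided by the square root of F, and its 95% interval uses 8 residual degrees of freedom. CPM are TMM-scaled; log2 CPM used a prior count of 2. Ratios were compared by exact permutation. The fit was tested on simulated data.

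The 10 genes and all lists were chosen with earlier results of these data known. All 10 are named; of each further list at most 4 genes per comparison, those with the smallest adjusted p, could be named, and for each of the 10 genes up to 3 most correlated genes. Lanes were read from the deposited file names: sample 1 was on lane 4 and sample 3 on lane 5 in each group, and sample 2 on lane 4 in normoxia and lane 5 in hypoxia.

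Same-numbered samples deviated together over 9438 genes between genotypes in normoxia (correlations 0.73, 0.55 and 0.60) and between conditions in WT (0.63, 0.55 and 0.40). They did not between genotypes in hypoxia (0.12, -0.20 and 0.35) or between conditions in TAZKo (0.13, -0.08 and 0.26). Sample 1 of the first 3 groups also shared lane 4 and a deviation by GC content, so these correlations do not establish that the numbers pair samples. The main fit and main ratio tests were unpaired, and pairing was tried only as the replicate block. Alternatives were other scaling and filters, DESeq2 1.42.0, the replicate block, the lane, the 6 samples compared alone, each library left out, and, chosen after seeing the data, other TMM references and a GC offset (lowess span 0.3).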

Additional observations from a re-analysis of the deposited data

Results flagged for a closer look

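The hypoxia response of Lonp1 differed between the genotypes by a test of the difference itself: the TAZKo response minus the WT response was a log2 difference of -0.59, with an SE of 0.11 (adjusted p = 0.00998 by edgeR). The WT libraries went from 267 ± 28.6 to 955 ± 25.5 CPM and the TAZKo libraries from 397 ± 21.9 to 942 ± 52.6 CPM (SD, n = 3). The difference kept its direction and its call in all 32 alternatives run (-0.69 to -0.52, adjusted p 4.08e-06 to 0.045).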

How the results depend on the processing

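Of the 10 genes, 3 to 4 passed between genotypes in normoxia, 8 to 10 in WT hypoxia, 5 to 10 in TAZKo hypoxia and 1 to 2 for the difference of responses. Between genotypes in hypoxia 1 passed, but 2 with DESeq2 size factors, the DESeq2 test, a mean of at least 5 CPM or the replicate block, 3 with only the 6 samples compared, and 5 with the GC offset alone or with the replicate block; leaving out 1 library gave 1 to 3, and other TMM references 1 to 2. With the GC offset and the replicate block 10 passed in TAZKo hypoxia, and with the GC offset, with or without the block, 2 passed for the difference of responses, Hspe1 at 0.35 being added. The GC offset with the block also raised the share of all genes called in TAZKo hypoxia, from 43.8% to 56.7%. The causes were not tested. In the 2 comparisons whose same-numbered samples deviated together, the replicate block changed no call among the 10 genes. In TAZKo hypoxia it added Clpp (-0.21, adjusted p = 0.0431) and between genotypes in hypoxia Clpx (-0.18, adjusted p = 0.0304). Over all genes it raised the count for the difference of responses from 350 to 639, DESeq2 gave 578 and no filter 727. The calls of Lonp1, Hspd1, Hspe1, Trap1 and Afg3l2 held in all alternatives run. The Hspa9 difference in normoxia was lost without WT normoxia sample 3, TAZKo normoxia sample 1 or sample 2 (0.18 to 0.19), and that of Clpp with only the 6 samples compared (adjusted p = 0.0651). Values near 0 changed sign. Trap1 in normoxia was -0.01 with no filter and with 4 TMM references, and -0.04 to 0.07 with 1 library left out. Yme1l1 in normoxia was -0.05 with the GC offset with or without the block and -0.14 without WT normoxia sample 1; in WT hypoxia it was -0.04 with library size alone, -0.01 with no filter and -0.11 with the GC offset with or without the block. With 1 library left out it ran from -0.16 to 0.14 there. Lonp1 between genotypes in hypoxia was 0.00 with library size alone and no filter, and -0.06 to 0.02 with 1 library left out. The difference of responses of Dnaja3 was 0.00 with DESeq2 size factors, the DESeq2 test and a mean of at least 5 CPM, 0.04 with no filter, and -0.02 to 0.02 over TMM references and -0.03 to 0.04 with 1 library left out. With 1 library left out the ratio of Hspe1 to Hspd1 in normoxia ran from -0.07 to 0.03, of Clpx to Clpp in hypoxia from -0.11 to 0.01, and of Yme1l1 to Afg3l2 in TAZKo hypoxia from -0.11 to 0.09. The fit with only the samples compared gives no difference of responses.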
